A study of Mus musculus with 10 samples.

Results

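The genes Cst7, Cst3 and Cstb encode cystatins F, C and B. Their transcripts were followed in microglia isolated from the cortex of WT mice, of APP/PS1 mice and of APP/PS1 mice given N-AS. The genes were picked by symbol from the 24421 gene symbols of the count files, all 3 were found, and all 3 were among the 18727 genes tested. The choice of genes was made with their levels in these same libraries known, so their values are described without a test. Cst7 passed the filter on low counts only through the groups in which it was high, so it had to differ between groups.

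RNA seq counts came from 10 libraries, with 3 from WT mice, 4 from APP/PS1 mice and 3 from APP/PS1 mice injected with N-AS, and each library pooled the microglia of a pair of mice. All mice were 9 months old, and the APP/PS1 genotype, which the N-AS group shared with the untreated group, joins transgenes for mutant human APP and mutant human presenilin-1. The promoters of the transgenes are not given in the sources used here. N-AS is N-acetyl sphingosine, injected subcutaneously each day at 30 mg/kg for 8 weeks from 7 months of age. The labels name no vehicle for the untreated groups, and the study's text speaks of vehicle for its untreated APP/PS1 mice. Microglia were enriched from papain-dissociated cortex on an Optiprep density gradient, without a sort on a surface marker.

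Cystatins are tight-binding, reversible inhibitors of papain-like cysteine proteases, the cathepsins that degrade proteins in endosomes and lysosomes, and some cystatins also inhibit legumain. Cystatin F, the product of Cst7, is made by leukocytes, is directed to the endolysosome and is stored as an inactive dimer; its transcript is a well-known marker of microglia around amyloid plaques. Cystatin C, the product of Cst3, is secreted, abundant in cerebrospinal fluid and made by microglia, astrocytes and choroid plexus, whereas cystatin B, the product of Cstb, lacks a signal peptide and works in the cytosol and nucleus, and its loss causes a progressive myoclonus epilepsy.

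Cst7 and Cst3 lie on the same chromosome. In the mm10 assembly (GRCm38.p6) Cst7 occupies chr2:150570415-150578944 on the forward strand, and Cst3 occupies chr2:148871722-148875512 on the reverse strand. Cstb occupies chr10:78425670-78427622 on the forward strand. No other gene of GENCODE M21 overlaps any of them, so their reads are not shared with a neighbour. RefSeq promoter windows matched 2 of the 3 genes. They are shown so that the promoters of Cst7 and Cst3, both higher in APP/PS1 libraries, can be set side by side. Each printed sequence has 251 bases and ends at the first base of the gene, at chr2:150570165-150570415 (forward strand) for Cst7 and chr2:148875512-148875762 (reverse strand) for Cst3, and capitals mark a match to TGANTCA.
Cst7: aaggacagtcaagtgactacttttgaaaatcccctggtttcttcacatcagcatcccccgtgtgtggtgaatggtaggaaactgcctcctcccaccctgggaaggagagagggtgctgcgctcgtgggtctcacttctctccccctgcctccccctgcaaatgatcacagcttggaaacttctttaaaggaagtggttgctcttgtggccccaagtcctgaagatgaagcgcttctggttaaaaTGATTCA
Cst3: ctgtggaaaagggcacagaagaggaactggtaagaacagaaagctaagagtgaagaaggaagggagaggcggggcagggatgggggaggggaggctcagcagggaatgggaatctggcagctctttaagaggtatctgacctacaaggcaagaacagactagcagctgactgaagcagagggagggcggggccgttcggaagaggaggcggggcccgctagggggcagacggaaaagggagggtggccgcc
Both strands of the 300-base RefSeq windows were searched for 3 words, and no match overlapped that of a different word. TGANTCA is its own reverse complement, so its match in Cst7 covers the same bases on both strands. The words were TGANTCA, the core word bound by AP-1 factors, CACGTG, the E-box bound by factors such as those of the MiT family, and GAGGAAGT, a word bound by PU.1. The Cst7 window held TGANTCA as TGATTCA, starting 6 bases before the gene. This match has T at its centre, so it is not the AP-1 word itself. TGANTCA was in 7.81% of 32851 mouse promoter windows. The other words were in neither window, and occur in 7.15% (CACGTG) and 3.20% (GAGGAAGT) of all windows. They were searched as exact words, so their absence does not show that related words are absent. The GC content was 53.3% for Cst7 and 60.3% for Cst3.

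The libraries held 8805804 to 19432075 counted reads each, and between 566 and 3985 symbols had no read in a library. Reads of 1424 olfactory and vomeronasal receptor genes, which cortex should hardly express, came to 1.61 to 7.05 reads per kb of exon and give the background expected for a gene that is off. The study's methods name male mice, but Xist had 5253 to 11188 reads in the 4 APP/PS1 libraries and in N-AS 1 and 2, against 29 to 37 reads in the 3 WT libraries and N-AS 3; the Y-linked Ddx3y had 590 to 1431 reads in those latter libraries and 7 to 359 in the others. Sex-linked transcripts thus moved with WT against APP/PS1, and the genotype and these transcripts cannot be told apart in that comparison. In N-AS against WT, N-AS 1 and 2 differed from WT in these transcripts as well, and N-AS 3 did not. The microglial label was checked with 14 markers. Their summed level lay in the range 858 to 1275 CPM (counts scaled to a library of fixed size) for WT, 2317 to 2978 CPM for APP/PS1 and 1592 to 1971 CPM for N-AS libraries, and no marker was at 0. Markers of astrocytes (2219 to 3905 CPM over all libraries, led by Slc1a2), oligodendrocytes (1824 to 6471 CPM) and neurons (1421 to 4773 CPM) were also present, so the libraries hold RNA of other brain cells.

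**Figure D1:**
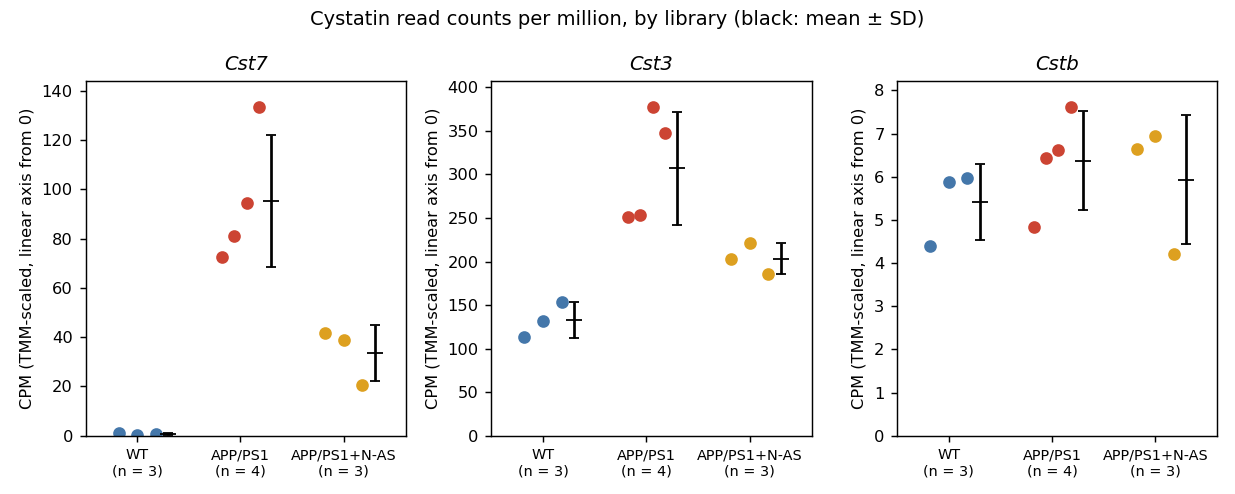
Level in CPM (linear axis starting at 0) of Cst7, Cst3 and Cstb in each library, by group, with group means and SD over libraries (n = 3, 4 and 3). Cst7 lay at 1.07 CPM or below for WT, at 72.6 CPM or above for APP/PS1 and at 20.7 to 41.5 CPM after N-AS, whereas the groups overlapped for Cstb.

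Cst7 was close to background in WT microglia, highest in APP/PS1 microglia and intermediate after N-AS. Library sizes behind each CPM were scaled by the TMM method, and errors are SD over libraries. The WT libraries had 9, 8 and 13 Cst7 reads, or 1.07, 0.495 and 0.626 CPM. The APP/PS1 libraries had 842, 982, 1384 and 2805 reads, or 72.6, 81.0, 94.4 and 133 CPM. The N-AS libraries had 631, 734 and 280 reads, or 41.5, 38.9 and 20.7 CPM. Every APP/PS1 library lay above every N-AS library, and every N-AS library lay above every WT library. APP/PS1 replicate 4 was the highest of all, and N-AS replicate 3 was the lowest of its group.

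The mean level of Cst7 was 0.730 ± 0.301 CPM in WT (SD, n = 3), 95.4 ± 26.9 CPM in APP/PS1 (SD, n = 4) and 33.7 ± 11.4 CPM in N-AS libraries (SD, n = 3). Among the tested genes with a known exon length, its level per kb of exon ranked 15546 from the highest in WT, 332 in APP/PS1 and 1075 after N-AS. The rank was thus lowest in WT and highest in APP/PS1. On the log2 scale the difference was 7.13 ± 0.41 (SE) for APP/PS1 against WT, a fold of 140, and ranked 2 of 18727 genes from the highest. It was 5.62 ± 0.41 for N-AS against WT, a fold of 49.3, and −1.50 ± 0.28 for N-AS against APP/PS1, where the APP/PS1 level was 2.83-fold the N-AS level.

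The folds against WT rest on few reads. The background expected from the receptor genes was 6.95, 2.54 and 5.20 reads for the exon length of Cst7 in WT 1, 2 and 3. The exact 95% Poisson intervals of the WT counts, which cover counting error only, were 4.12 to 17.1, 3.45 to 15.8 and 6.92 to 22.2 reads. The count of WT 1 was therefore within counting error of the background, and those of WT 2 and 3 were above it. As a multiple of background, Cst7 ranged from 1.30 to 3.15 for WT, from 304 to 531 for APP/PS1 and from 83.0 to 248 for N-AS libraries. With the background subtracted, an alternative added after the data had been seen, the log2 fold against WT was 8.22 in APP/PS1 and 6.71 after N-AS.

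**Figure D2:**
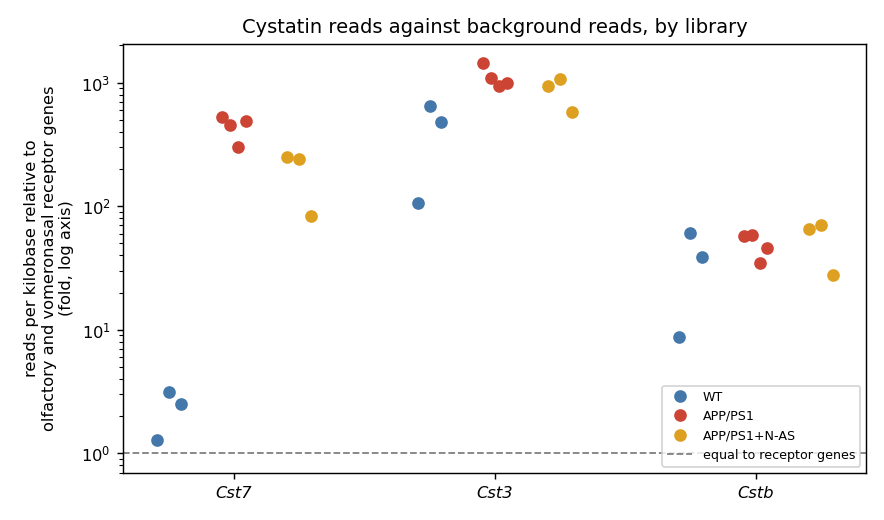
Reads of each cystatin divided by the reads expected from olfactory and vomeronasal receptor genes of the same exon length, by library (log axis). Cst7 in WT libraries sits at 1.30 to 3.15, next to the line at 1, and all other values, Cst3 and Cstb in every library included, sit at 8.71 or above.

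Cst3 was the most abundant cystatin in every group and followed the same order of groups with smaller differences. The WT libraries had 951, 2127 and 3197 reads, or 113, 131.5 and 154 CPM. The APP/PS1 libraries had 2907, 3069, 5526 and 7317 reads, or 251, 253, 377 and 348 CPM. The N-AS libraries had 3081, 4173 and 2519 reads, or 203, 221 and 186 CPM. The 3 groups did not overlap, and the lowest N-AS library, replicate 3, still lay above the highest WT library, also replicate 3. Means were 133 ± 20.6 CPM in WT (SD, n = 3), 307 ± 64.9 CPM in APP/PS1 (SD, n = 4) and 203 ± 17.5 CPM in N-AS libraries (SD, n = 3). The log2 fold change was 1.21 ± 0.19 (SE) for APP/PS1 against WT, a fold of 2.31. It was −0.60 ± 0.19 for N-AS against APP/PS1, where the APP/PS1 level was 1.51-fold the N-AS level, and 0.61 ± 0.20 for N-AS against WT.

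Cstb differed little between groups. The WT libraries had 37, 95 and 124 reads, or 4.39, 5.87 and 5.97 CPM. The APP/PS1 libraries had 56, 78, 97 and 160 reads, or 4.83, 6.44, 6.62 and 7.61 CPM. The N-AS libraries had 101, 131 and 57 reads, or 6.65, 6.94 and 4.21 CPM. The groups overlapped in all 3 comparisons, with the lowest library in the N-AS group. Means were 5.41 ± 0.885, 6.37 ± 1.15 and 5.93 ± 1.50 CPM (SD, n = 3, 4 and 3). The log2 fold changes of 0.23 ± 0.23 (SE), −0.10 ± 0.23 and 0.12 ± 0.25 for APP/PS1 against WT, N-AS against APP/PS1 and N-AS against WT were each smaller than their SE. Without N-AS replicate 3, the value for N-AS against APP/PS1 changed sign to 0.10.

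The order Cst3, Cst7, Cstb in level per kb of exon held in APP/PS1 and N-AS libraries, and Cst7 came last in WT. Exon lengths were 986 bases for Cst7, 1266 bases for Cst3 and 603 bases for Cstb in GENCODE M21. In WT, Cst3 stood at 105 CPM per kb, Cstb at 8.98 and Cst7 at 0.740. In APP/PS1, Cst3 stood at 243 CPM per kb, Cst7 at 96.7 and Cstb at 10.6. After N-AS the levels were 160.5, 34.2 and 9.83 CPM per kb for Cst3, Cst7 and Cstb. Cst7 thus passed from below Cstb to above it. Of the summed level of the 3 genes per kb, Cst7 made up 0.677% ± 0.376 for WT (SD, n = 3), 27.5% ± 3.49 for APP/PS1 (SD, n = 4) and 16.4% ± 3.99 for N-AS libraries (SD, n = 3), and the groups did not overlap. The share of Cst3 was 91.5% on average in WT, 69.4% in APP/PS1 and 78.8% after N-AS.

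**Figure D3:**
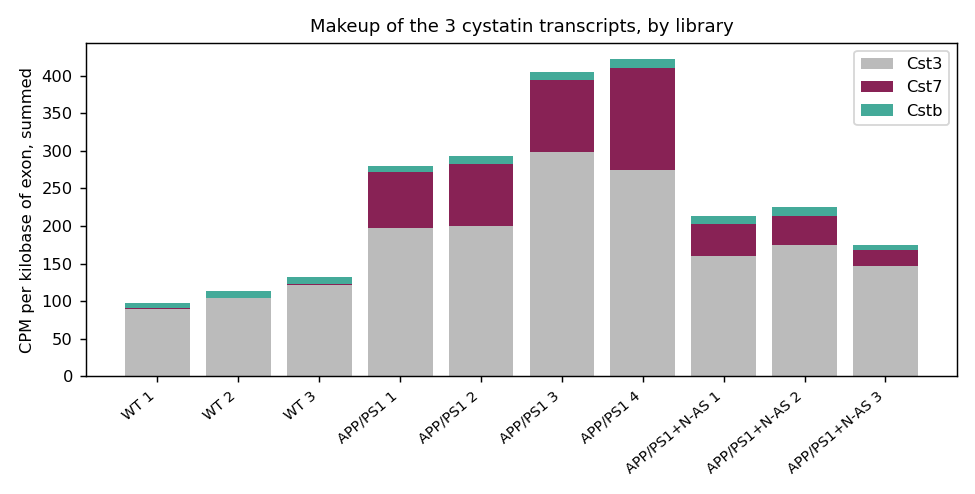
Level (CPM per kb of exon, linear axis starting at 0) of Cst3, Cst7 and Cstb in each library, as stacked bars whose height is the sum of the 3 genes. The Cst7 segment is 1.11% or less of the WT bars, 23.7% or more of the APP/PS1 bars and 19.7% or less of the N-AS bars, and Cst3 is the largest segment of all 10 bars.

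Microglial markers moved in the same direction as Cst7 and Cst3. Of the 14 markers, 10 were called higher in APP/PS1 than in WT by edgeR's quasi-likelihood test, beside 2.67% of all genes tested, and 0 were called in N-AS against APP/PS1, where 6 were lower at an unadjusted p under 0.05, beside 4.05% of all genes, and DESeq2 also called 0. In such bulk libraries more microglia and more RNA per microglial cell cannot be told apart. The mean log2 level of the markers differed by 1.10 for APP/PS1 against WT, by −0.44 for N-AS against APP/PS1 and by 0.66 for N-AS against WT. Each cystatin was therefore also set against the markers of its own library.

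Relative to the microglial markers, Cst7 stood at −5.95 ± 0.65 on the log2 scale in WT (SD, n = 3), −0.24 ± 0.43 in APP/PS1 (SD, n = 4) and −1.32 ± 0.40 in N-AS libraries (SD, n = 3). The groups still did not overlap, and the differences were 5.71 for APP/PS1 against WT and −1.08 for N-AS against APP/PS1. Cst3 stood at 1.37 ± 0.10, 1.47 ± 0.26 and 1.33 ± 0.06, and its groups overlapped in every comparison. Its difference was 0.10 for APP/PS1 against WT, less than the pooled SD of 0.21, and −0.13 for N-AS against APP/PS1, less than the pooled SD of 0.20. Cst3 thus kept its distance from the markers within the spread between libraries. Cstb stood at −3.22 ± 0.21 in WT, −4.09 ± 0.29 in APP/PS1 and −3.76 ± 0.22 in N-AS libraries, so it was lower relative to the markers in both APP/PS1 groups than in WT, with no overlap. Its APP/PS1 and N-AS libraries overlapped. The mean log2 level of the markers was itself higher than in WT, by 1.10 in APP/PS1 and by 0.66 after N-AS. The log2 fold changes of Cstb in those comparisons were 0.23 and 0.12. A gene with an unchanged level would also fall on this ratio, so nothing about Cstb itself is read from it.

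**Figure D4:**
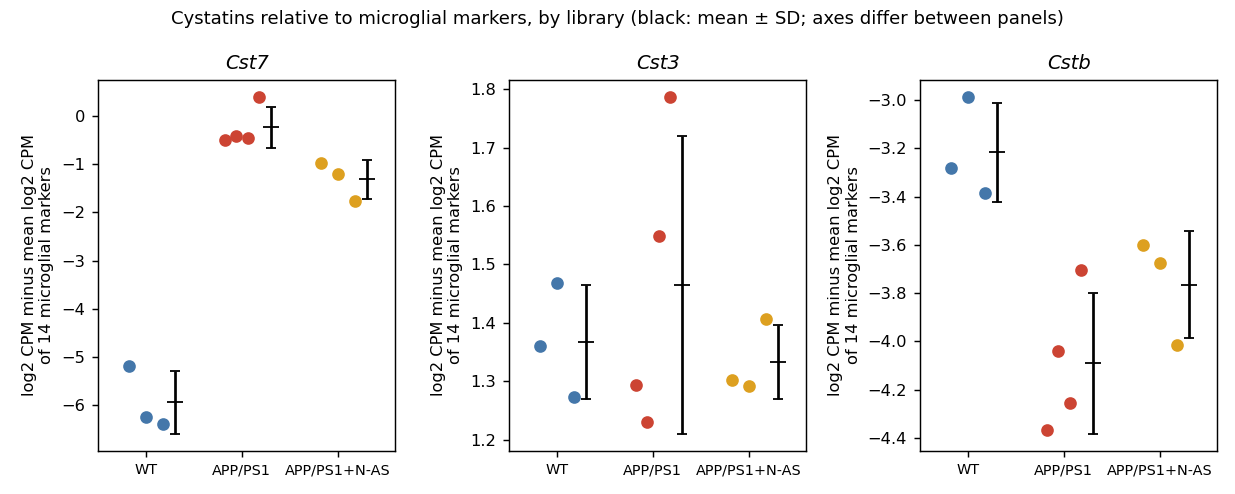
Log2 level of each cystatin minus the mean log2 level of 14 microglial markers in the same library, by group, with mean and SD (axes differ between panels). Cst7 goes from a mean of −5.95 in WT to −0.24 in APP/PS1 and −1.32 after N-AS, the group means of Cst3 stay between 1.33 and 1.47, and Cstb goes from −3.22 to −4.09 and −3.76.

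Other cell types that can express these genes were followed by their own marker lists. Neutrophils, a known source of cystatin F, had a summed marker level of 96.6 CPM in APP/PS1 replicate 3, with S100a9 at 38.1 CPM, and 3.00 to 17.0 CPM in the other 9 libraries. Cst7 stood at 94.4 CPM in replicate 3 and at 133 CPM in replicate 4, where these markers summed to 3.00 CPM. Without replicate 3 the log2 fold of Cst7 for APP/PS1 against WT was 7.14. Natural killer and T cell markers, led by Cd8a, summed to between 3.32 and 12.7 CPM for WT, 6.90 and 9.76 CPM for APP/PS1, and 3.47 and 7.52 CPM after N-AS, and border macrophage markers, led by Mrc1, to 19.5 to 41.3 CPM over all libraries. By edgeR 0 of the 5 tested markers of either list were called in any comparison, and 0 had an unadjusted p under 0.05; DESeq2 called 0 as well. The part of neutrophils, lymphocytes and border macrophages in the level of Cst7 was not tested.

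For Cst3, choroid plexus markers, led by Ttr, summed to between 8.19 and 404 CPM for WT, 696 and 1206 CPM for APP/PS1, and 7.97 and 824 CPM for N-AS libraries. The low libraries were WT 3 and N-AS 3, with 36 and 9 Ttr reads, and their Cst3 levels were 154 and 186 CPM, the highest of WT and the lowest of the N-AS group. Astrocyte markers summed to between 2219 and 2649 CPM for WT, 2440 and 3905 CPM for APP/PS1, and 2258 and 3299 CPM after N-AS. Of 7 astrocyte markers, 1 was called higher in APP/PS1 than in WT, beside 2.67% of all genes tested. In that comparison 3 of the 7 had a positive log2 fold change and 4 a negative one, with a median of −0.13 against −0.07 over all genes. The called marker was Gfap, an intermediate filament of reactive astrocytes that was chosen for mention after its values were seen. Gfap is part of the sums above. The WT libraries had at most 17.6 CPM of Gfap, the APP/PS1 libraries 498 to 922 CPM, and the N-AS libraries 76.2 to 340 CPM. The part of choroid plexus and of astrocytes in the level of Cst3 was not tested.

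N-AS replicate 3, which had few Xist reads and the lowest N-AS level of all 3 cystatins, was left out in turn. The log2 fold change for N-AS against APP/PS1 was then −1.24 for Cst7 and −0.53 for Cst3, with Xist reads high in all 6 remaining libraries of both groups. The libraries are numbered in the labels, and numbers 1 to 6 and 7 to 10 each hold all 3 groups, so differences were also taken within each set. For N-AS against APP/PS1, Cst7 differed by −0.93 within numbers 1 to 6 and by −2.43 within 7 to 10, and Cst3 by −0.25 and −0.96. Both genes were lower after N-AS in each set, with a smaller difference in the former. Cstb differed by 0.28 and −0.74, in opposite directions. For APP/PS1 against WT, Cst7 differed by 6.47 and 7.21, and Cst3 by 1.05 and 1.23. For N-AS against WT, Cst7 differed by 5.54 and 4.78, and Cst3 by 0.80 and 0.27. The later set holds 1 WT, 2 APP/PS1 and 1 N-AS library, so it has no replicate check for WT or N-AS. In numbers 1 to 6, Xist reads were high in N-AS and low in WT. Genotype, N-AS and Xist cannot be told apart there in N-AS against WT. In numbers 7 to 10, WT 3 and N-AS 3 both had few Xist and Ttr reads. APP/PS1 3 and 4 had many of both, so they differed from N-AS 3 in these transcripts too.

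Non-overlapping groups were common in these data. In APP/PS1 against WT, Cst7 and Cst3 were among the 8.15% of all genes whose APP/PS1 libraries all lay above the WT libraries. In N-AS against APP/PS1 they were among the 6.46% whose N-AS libraries were all lower, and in N-AS against WT among the 4.9% whose N-AS libraries were all higher. The genes were chosen on these levels, so nothing is read from those shares. By edgeR 0 genes (0%) passed an adjusted p of 0.05 in N-AS against APP/PS1, with 1653 genes at an unadjusted p under 0.05.

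Most of the cysteine proteases that cystatins inhibit were higher in APP/PS1 libraries. Of 11 listed proteases, all tested, 7 rose in APP/PS1 against WT and 0 fell at an adjusted p under 0.05 (edgeR's quasi-likelihood test, Benjamini-Hochberg over all genes), beside 2.67% of all genes called higher and 0.796% called lower. Their median log2 fold change was 1.20, against −0.07 over all genes. The 14 microglial markers had a median of 1.22 in the same comparison, and 7 oligodendrocyte markers a median of −1.14. Of those 7, 5 were lower at an unadjusted p under 0.05, beside 8.9% of all genes, and 1 was called lower, beside 0.796%. The proteases were not set against these markers library by library, and the part of cell makeup in their levels was not tested. The most abundant was Ctss, encoding cathepsin S, an elastolytic protease of antigen-presenting cells. It stood at 166, 198 and 299 CPM in WT, at 1006, 1171, 1699 and 1759 CPM in APP/PS1 and at 810, 864 and 541 CPM after N-AS. The 3 groups of Ctss libraries did not overlap, and its log2 fold change for APP/PS1 against WT was 2.67 ± 0.31 (SE, edgeR adjusted p = 0.00135).

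Ctsz, encoding the carboxypeptidase cathepsin X, rose by a log2 fold change of 2.63 ± 0.23 (SE, edgeR adjusted p = 0.000379), from a mean of 25.4 to 158 CPM. Ctsl and Ctsb, encoding the broad lysosomal endopeptidases cathepsin L and B, rose by 2.09 ± 0.18 and 1.85 ± 0.25. Ctsh, an aminopeptidase, rose by 1.37 ± 0.20, and Ctsc, the activator of granule serine proteases and a known target of cystatin F, rose by 1.20 ± 0.19, from 12.6 to 28.8 CPM. Lgmn, encoding legumain, the asparaginyl endopeptidase that cystatin C inhibits at a site of its own, rose by 1.04 ± 0.18 (edgeR adjusted p = 0.0126). Ctsf, Ctso, Ctsk and Ctsw did not pass, with log2 fold changes of 0.12, 0.32, −0.21 and 0.16. Ctsk is the collagen-degrading protease of osteoclasts and Ctsw is found in cytotoxic lymphocytes, and both were low, at 4.34 and 2.03 CPM in APP/PS1.

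After N-AS the mean level of 9 of the 11 proteases lay between those of WT and APP/PS1. The exceptions were Ctsk, at 5.14 CPM in WT, 4.34 CPM in APP/PS1 and 5.93 CPM after N-AS, and Ctsw, at 1.90, 2.03 and 1.86 CPM. The 9 include Ctsf and Ctso, which did not pass in APP/PS1 against WT. The share of all genes with such an order was not taken, so nothing is read from that count. In N-AS against APP/PS1, 0 of the 11 were called by edgeR, beside 0% of all genes, and 6 had an unadjusted p under 0.05, all lower, beside 4.05% of all genes. DESeq2 called 1 of the 11, Ctsl, and in either direction 0.537% of the 14722 genes to which it gave an adjusted p. The log2 fold changes of those 6 were −0.93 for Ctss, −0.80 for Ctsl, −0.79 for Ctsb, −0.78 for Ctsz, −0.68 for Ctsh and −0.41 for Ctsc. The median over all 11 was −0.41, against −0.01 over all genes, and 7 did not overlap between the groups, beside 6.46% of all genes. These differences did not hold after adjustment for all genes in edgeR.

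Against WT, 2 of the 11 proteases rose after N-AS, Ctsl by 1.29 ± 0.19 on the log2 scale (SE, edgeR adjusted p = 0.0238) and Ctsz by 1.85 ± 0.23 (edgeR adjusted p = 0.0187), beside 0.176% of all genes called higher. Both lay above WT in each of the 3 N-AS libraries. The median over the 11 was 0.70, against −0.04 over all genes, and 7 lay above WT without overlap, beside 4.9% of all genes. DESeq2 called 6 of the 11, beside 0.999% in either direction of the 18713 genes to which it gave an adjusted p. The edgeR calls of the proteases were lost when the replicate number was a block, which left 5 of all 18727 genes called, against 35 without it. The protease calls were also lost without WT replicate 1, WT replicate 2, N-AS replicate 1 or N-AS replicate 2, each of which left 0.

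Cathepsins that cystatins do not inhibit moved with the cysteine proteases. Of 4 listed, 3 were tested and all 3 rose in APP/PS1 against WT, beside 2.67% of all genes called higher. With the replicate block 2 were called, beside 326 of 18727 genes in either direction. Ctsd, encoding the lysosomal aspartic protease cathepsin D, went from a mean of 235 CPM to 1549 CPM (log2 fold change 2.72 ± 0.26, SE, edgeR adjusted p = 0.000545). Ctse, another aspartic protease, rose by 2.78 ± 0.52 from a low level of 0.735 CPM, and Ctsa, a serine carboxypeptidase that protects lysosomal glycosidases, rose by 1.06 ± 0.16. In N-AS against APP/PS1 their log2 fold changes were −0.95, −1.59 and −0.49 for Ctsd, Ctse and Ctsa. By edgeR 0 were called, and all 3 were lower at an unadjusted p under 0.05, beside 4.05% of all genes. DESeq2 called 1, beside 0.537% of the 14722 genes to which it gave an adjusted p. Against WT, of these 3, Ctsd alone was called after N-AS, at 1.78 ± 0.26 (edgeR adjusted p = 0.0256), beside 0.176% of all genes called higher. The call was lost with the replicate block, which left 5 of all 18727 genes called. The fourth, Ctsg, a neutrophil serine protease, was not tested, with at most 33 reads in a library.

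**Figure D5:**
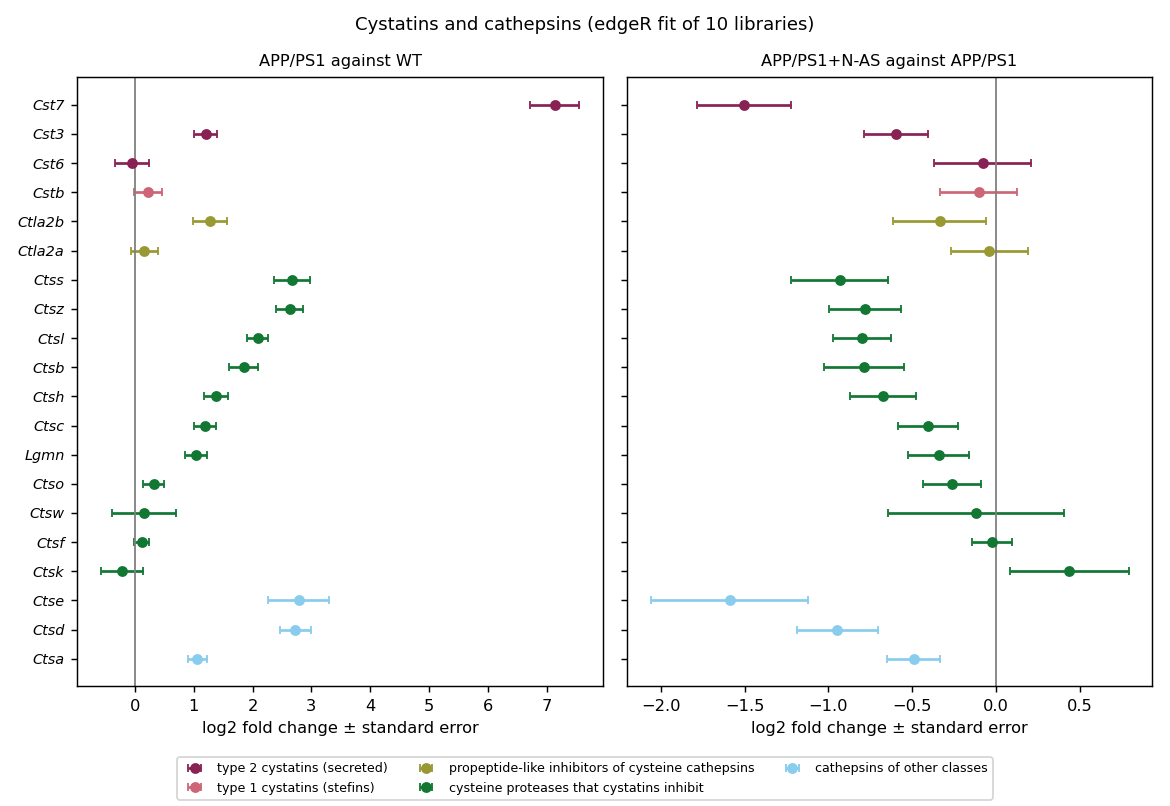
Log2 fold change with SE (edgeR fit of 10 libraries) of cystatins, the related inhibitors Ctla2a and Ctla2b, cysteine proteases and other cathepsins, for APP/PS1 against WT (left) and N-AS against APP/PS1 (right). Cst7 lies farthest to the right at 7.13 in the former and reaches −1.50 in the latter, 7 cysteine proteases lie between 1.04 and 2.67 in the former, and Hrg, with 0 to 19 reads, is left out.

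The summed level of the proteases differed more than that of the cystatins. The 3 cystatins summed to 115 ± 17.3 CPM per kb in WT (SD, n = 3), 349.9 ± 74.1 in APP/PS1 (SD, n = 4) and 204 ± 26.5 after N-AS (SD, n = 3). The 11 proteases summed to 309.6 ± 71.0, 1467 ± 335 and 829.5 ± 179 CPM per kb in the same groups. The log2 ratio of cystatins to proteases was −1.42 ± 0.11 for WT (SD, n = 3, lowest −1.55) and −2.06 ± 0.04 for APP/PS1 (SD, n = 4), and ran from −2.10 to −1.84 over the N-AS libraries. It was thus lower in both APP/PS1 groups than in WT without overlap, while the N-AS range contained that of untreated APP/PS1. The ratio compares transcripts, not inhibitor and enzyme protein. Cst3, which astrocytes and choroid plexus also make, was 91.5% of the cystatin sum in WT. The mean log2 level of the microglial markers differed by 1.10 for APP/PS1 against WT. The part of cell makeup in the ratio was not tested.

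The other cystatins contributed few reads. Of 23 listed, 21 were in the files and 2, Cst6 and Hrg, passed the filter on low counts. Cst6, encoding cystatin E/M of skin and other epithelia, stood at 5.90 CPM in WT, 5.66 in APP/PS1 and 5.33 after N-AS, with a log2 fold change of −0.04 ± 0.29 (SE) for APP/PS1 against WT. Hrg, encoding a plasma glycoprotein made in liver, had 0 to 19 reads in a library. By edgeR 0 of the 2 were called in any comparison, and 0 had an unadjusted p under 0.05. DESeq2 called 0 as well, with 1 at an unadjusted p under 0.05 in each comparison that involves N-AS. The remaining 19 had at most 41 reads in any library, a maximum reached by Cst10, and Csta1 had at most 21. The Stfa genes are near copies of each other, so the split of their reads is uncertain. The propeptide-like inhibitor Ctla2b rose in APP/PS1 against WT by 1.28 ± 0.29 on the log2 scale (SE, edgeR adjusted p = 0.0401), whereas its close relative Ctla2a, with a value of 0.16, did not pass; sequence shared by the pair makes their split uncertain too.

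The genes whose level followed each cystatin most closely were sought among genes with a mean of at least 10 CPM, by Pearson's r of log2 CPM over the 10 libraries, which share group, depth and cell makeup. For Cst7 they were Itgax (r = 0.987), encoding an integrin of dendritic cells and activated microglia, Cd68 (0.987), a lysosomal membrane protein, Cyba (0.986), a subunit of the phagocyte oxidase, Hvcn1 (0.985), a proton channel, and C3ar1 (0.984), a complement receptor. For Cst3 they were Serpine2 (0.995), a serine protease inhibitor, Hpgds (0.991), a prostaglandin D synthase, Hexa (0.990), a lysosomal hexosaminidase subunit, Hif1a (0.989), a hypoxia-response factor, and Snx5 (0.989), a sorting nexin. Once group means had been removed, r was 0.878 for Itgax with Cst7 and 0.983 for Serpine2 with Cst3. The closest genes to Cstb were Phykpl (0.860), Mir8104 (0.856), Slc25a39 (0.855), Prex1 (0.846) and Sulf1 (0.846). With group means left in, none came as close as the genes named for Cst7 and Cst3. With group means removed, r ran from 0.838 to 0.890 for the genes named for Cstb. The same r ran from 0.786 to 0.878 for those of Cst7 and from 0.928 to 0.983 for those of Cst3.

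Among the cystatins themselves, Cst7 and Cst3 had r = 0.896 over the 10 libraries and 0.286 once group means had been removed. Cst3 and Cstb had 0.566 and 0.689, and Cst7 and Cstb had 0.387 and 0.480. With group means removed, r was thus lower for Cst7 and Cst3 but not for Cst3 and Cstb. The WT libraries, with 9, 8 and 13 Cst7 reads close to background, enter the former value with their counting error. The pairs are therefore not compared within groups. These values describe 10 libraries of 3 groups and carry no test.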

How the data were processed

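The authors depleted ribosomal RNA, prepared stranded libraries with the SMARTer kit, sequenced paired ends and aligned reads with TopHat. The submitters' processing notes name mm10 and edgeR, and versions and annotation are not given in the sources used here. The deposited values are raw read counts per gene, 1 file per library, without normalization. Lines that shared a symbol (103 lines, 43 symbols) were summed. Groups and replicate numbers came from the sample titles. Neither the titles nor the study's methods say whether libraries of a group were prepared independently beyond the pooling, so p-values measure the spread between these libraries.

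Counts were filtered with filterByExpr, scaled by TMM and fitted with edgeR 4.0.16 in R 4.3.3 (glmQLFit and glmQLFTest, 1 model of 3 groups, no covariates), with Benjamini-Hochberg adjustment over 18727 genes and a threshold of 0.05. A prior count of 2 was added for log2 CPM. The common dispersion was 0.0752. Total counts of 8805804 to 19432075 make fold changes of genes with few reads imprecise. Reads carry no molecular identifiers, so intervals cover counting error only. Exon lengths came from GENCODE M21, an annotation of GRCm38 that may differ from the authors' annotation, and matched 95.8% of genes. Promoters came from RefSeq (GRCm38.p6). The scripts were tested on simulated data.

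The cystatins and the lists of genes were chosen with earlier results of these data known. Named genes were, per list, those called in any comparison and the 3 with the highest mean CPM, the 5 genes most like each cystatin, Xist, Ddx3y and the top marker of each list; 1 gene under this rule is not reported here, and other genes are marked as chosen later or belong to a list described whole. Pairing by replicate number was checked by correlating same-numbered libraries with the group means taken out. The r was 0.278, 0.142 and 0.309 for N-AS against APP/PS1. It was −0.485, 0.441 and −0.010 for APP/PS1 against WT and −0.136, 0.348 and 0.240 for N-AS against WT. The main fit used no pairs in any comparison, and the replicate number entered only as the block among the alternatives. Alternatives were other scalings, DESeq2 1.42.0, other filters, only the 2 groups compared, a replicate block, a library number covariate and leaving out each library.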

Additional observations from a re-analysis of the deposited data

How the results depend on the processing

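The log2 fold changes of Cst7 and Cst3 kept their direction under every alternative setting run. For Cst7 they ranged from 6.92 to 7.38 for APP/PS1 against WT, from −1.67 to −1.24 for N-AS against APP/PS1 and from 5.43 to 5.90 for N-AS against WT. For Cst3 the ranges were 1.10 to 1.34, −0.68 to −0.48 and 0.51 to 0.74. With background reads subtracted, an alternative chosen after seeing the data, Cst7 reached 8.22 and 6.71 against WT. For Cstb in N-AS against APP/PS1, leaving out each library gave −0.24 to 0.10. The difference of Cst3 relative to microglial markers for N-AS against WT, −0.03, became 0.0063 when 13 of the 14 markers were used. A filter of at least 10 counts in every library removed Cst7 and gave it no value. The 2 cysteine proteases called in N-AS against WT became 1 with total counts, 6 with DESeq2, 0 with only the 2 groups compared, and 0 to 3 when each library was left out. In N-AS against APP/PS1, DESeq2 called 1. In APP/PS1 against WT, leaving out each library kept 6 to 7 calls. The causes were not tested. Spearman's rho shared 1, 2 and 1 of the 5 genes most like Cst7, Cst3 and Cstb.

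With the replicate block, in which APP/PS1 replicate 4 has a level of its own and adds nothing, Cst7 had log2 fold changes of 6.92, −1.34 and 5.58 in the order above, and Cst3 had 1.14, −0.50 and 0.63. Cstb had 0.13, −0.0040 and 0.13. The block left 6 protease calls for APP/PS1 against WT, 0 for N-AS against APP/PS1 and 0 for N-AS against WT. Over all 18727 genes it left 326, 0 and 5 calls in that order, where the main fit had 649, 0 and 35.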
